A study of Sus scrofa with 6 samples.

Results

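The genes described here encode chaperones of the endoplasmic reticulum (ER) and the proteins that sense and relay the load of unfolded protein in that compartment. They were taken as the rows of the deposited gene table whose gene name was one of 10 chosen names, and 9 of the 10 had such a row, out of 30477 genes in the table. Abdominal aorta was compared between 3 male Wuzhishan miniature pigs fed a normal chow (NC) diet and 3 male pigs of the same breed given chow enriched in fat, cholesterol and fructose (HFCF), each for 6 months, with 1 RNA-Seq library per pig. The added fat came from shortening oil and egg yolk, and both groups received a daily ration set by body weight. These were 3 of a larger number of pigs per diet, and how they were picked is not given in the sources used here. The labels give an age of 3 to 4 months without saying at which point, and the methods give an older age at acquisition.

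Secretory and membrane proteins fold inside the ER, where HSPA5 (also called BiP or GRP78) and HSP90B1 (GRP94) hold unfolded chains, calreticulin holds sugar-bearing chains, and disulfide isomerases such as PDIA4 form and rearrange cysteine bonds. When unfolded protein builds up, the membrane sensors ATF6, IRE1 (gene ERN1) and PERK (gene EIF2AK3) start the unfolded protein response, which raises chaperone and degradation genes and slows translation. In atherosclerosis this response is known from lipid-loaded macrophages and smooth muscle cells. IRE1 acts by splicing XBP1 messenger RNA, and PERK by phosphorylating its substrate, so neither activity can be read from gene-level abundance, which is what was measured here.

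ERN1 had no row under its own name. Its gene identifier, ENSSSCG00000039909, was listed under the name ICAM2, an endothelial and leukocyte adhesion molecule, with 8 transcripts and the KEGG entries of both genes, and the 2 genes are direct neighbours in the Sscrofa11.1 RefSeq gene order. The row held 3.08, 3.83 and 3.53 FPKM (fragments scaled to exon length and to the mapped reads of the library) in the NC pigs and 4.85, 3.57 and 2.78 FPKM in the HFCF pigs. The groups overlapped, but this row may join the transcripts of both genes, so no level is given for ERN1.

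The 6 libraries had relative depths of 1 to 1.37, with the first NC pig set to 1. Each was estimated as the most common ratio between that pig and the library, over low FPKM values of genes with a single transcript. The third NC pig was the deepest, and absolute read numbers were not used here. The deposited FPKM values summed to 272207 to 287141 in the NC pigs and to 330222 to 338690 in the HFCF pigs, so HFCF values were higher across the table. The median log2 fold change of the 15384 tested genes (those averaging 0.1 FPKM or more) was 0.32 on the log2(FPKM + 0.1) scale, HFCF minus NC. It was -0.003 with median-ratio scaling, -0.065 with quantile normalization and 0.089 as TPM, in which every library sums to the same total, so a value near 0.32 is the middle of the table, and the changes of the 9 genes are also given relative to it. Contractile smooth muscle markers were abundant in every library, as the labelled tissue requires, with a summed level of 15914 to 22729 FPKM for 8 genes in the NC pigs and 7997 to 12892 FPKM in the HFCF pigs. Macrophage markers went the other way, and the summed level of 11 genes was 95.9 to 102.8 FPKM in the NC pigs and 869.3 to 2271 FPKM in the HFCF pigs. In whole tissue, fewer cells of a type and less RNA per cell cannot be told apart.

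HSP90B1 was 1.76-fold higher and HERPUD1 was lower, at 0.67-fold, in the HFCF group, while the other 7 genes, HSPA5 and CALR among them, did not pass an adjusted p of 0.05 (limma's moderated test, Benjamini-Hochberg adjustment over all tested genes). The 2 calls make 22.2% of the 9 genes, against 28.9% of all tested genes called (22.8% higher and 6.16% lower in the HFCF group). By the thresholds of the study, a ratio of group means above 2 or below 0.5 with an unadjusted p under 0.05, 0 of the 9 genes passed, against 25.5% of all tested genes. The groups did not overlap in 4 of the 9 genes (44.4%), with 3 above and 1 below the NC range, against 48.2% of all tested genes (36.1% higher and 12.1% lower). The median log2 fold change of the 9 genes was -0.05, which is -0.37 relative to all tested genes, and 7 of the 9 lay below the median of all genes. In the plot of levels by pig, only HSP90B1, HERPUD1, ATF6 and EIF2AK3 have no shared range between the groups.

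**Figure D1:**
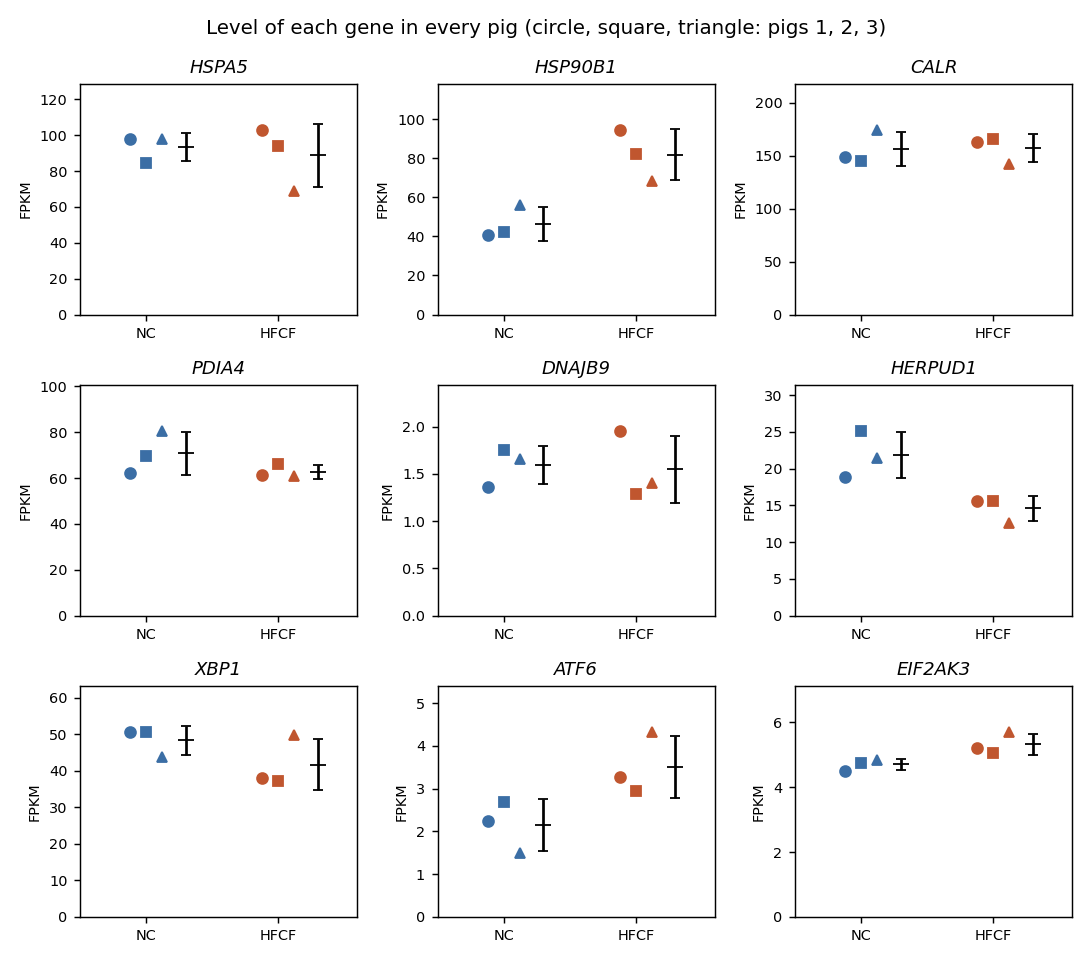
FPKM (linear axis from 0) of each of the 9 genes in the NC pigs (blue) and HFCF pigs (orange), with circle, square and triangle for pigs 1, 2 and 3 of each group and the mean with its SD in black. HSP90B1 lies between 68.6 and 94.6 FPKM in the HFCF pigs and between 40.6 and 56.2 FPKM in the NC pigs, whereas HSPA5 and CALR overlap.

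The order of abundance can be read across genes because FPKM is a level per length. In the NC group CALR was the most abundant of the 9 genes at 156.1 ± 15.9 FPKM (SD, n = 3), and it was also the most abundant in the HFCF group at 157.1 ± 13.1 FPKM (SD, n = 3). In the NC group HSPA5, PDIA4, XBP1, HSP90B1, HERPUD1, EIF2AK3, ATF6 and DNAJB9 followed in that order. The ranges of neighbours in this order overlapped only for XBP1 with HSP90B1 and for ATF6 with DNAJB9. In the HFCF group HSP90B1 stood directly below HSPA5, above PDIA4 and XBP1, and their ranges overlapped. The other neighbours in the HFCF order did not overlap. The 4 chaperones were among the most abundant transcripts, and CALR exceeded 98.4% of the tested genes in the NC group. The sensors ATF6 and EIF2AK3 were far lower, with ATF6 above 46.0% and EIF2AK3 above 61.7% of the tested genes in the NC group.

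HSPA5 (ENSSSCG00000005601), the Hsp70 of the ER lumen, which also holds the sensors inactive, had 97.7, 84.7 and 98.0 FPKM in the NC pigs and 103.0, 94.2 and 69.1 FPKM in the HFCF pigs. The third HFCF pig was the lowest of all 6 and the first HFCF pig the highest, so the groups overlapped. Its log2 fold change was -0.09 (standard error 0.18, 95% interval -0.52 to 0.34, adjusted p = 0.739, limma), which is -0.41 relative to all tested genes. Without the third HFCF pig the log2 fold change was 0.08.

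HSP90B1 (ENSSSCG00000000849), the Hsp90 of the ER, which folds integrins and Toll-like receptors among others, had 40.6, 42.4 and 56.2 FPKM in the NC pigs and 94.6, 82.1 and 68.6 FPKM in the HFCF pigs. Every HFCF pig was above every NC pig. The mean rose from 46.4 ± 8.54 FPKM in NC to 81.8 ± 13.0 FPKM in HFCF (SD, n = 3 each), and the log2 fold change was 0.82 (standard error 0.19, 95% interval 0.37 to 1.26, adjusted p = 0.0192, limma), which is 0.50 relative to all tested genes. The direction was the same in all 15 alternatives, but the call was not. The adjusted p from limma was 0.0954 with median-ratio scaling, where the log2 fold change was 0.46, and 0.0757 as TPM. It was 0.0737 without the first NC pig, 0.062 without the second NC pig and 0.0567 without the second HFCF pig. The macrophage markers were also higher in the HFCF group. Their summed level was 2271, 951.6 and 869.3 FPKM in HFCF pigs 1, 2 and 3, the same order as HSP90B1. HSPA5, UGGT1 and EDEM1 had this order too, and in the NC pigs the macrophage sum (96.9, 95.9 and 102.8 FPKM) did not have the order of HSP90B1. Their part in the result was not tested.

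CALR (ENSSSCG00000013746), the calcium-binding lectin chaperone calreticulin, had 149.0, 145.0 and 174.4 FPKM in the NC pigs and 163.0, 166.0 and 142.1 FPKM in the HFCF pigs. The third pig of each group stood apart from the other 2, upward in NC and downward in HFCF, and the ranges overlapped. Its log2 fold change was 0.01 (95% interval -0.33 to 0.35, adjusted p = 0.965, limma), which is -0.31 relative to all tested genes. It lay between -0.35 and -0.15 with the 3 scalings, which lower the median of all tested genes. PDIA4 (ENSSSCG00000015453), a disulfide isomerase with several thioredoxin domains, had 62.2, 69.6 and 80.5 FPKM in the NC pigs and 61.1, 66.2 and 61.0 FPKM in the HFCF pigs. The HFCF pigs were close to one another, and the first NC pig lay within their range. The log2 fold change of PDIA4 was -0.17 (95% interval -0.51 to 0.17, adjusted p = 0.419, limma), or -0.49 relative to all tested genes, and only median-ratio scaling gave it a call, at -0.52 (adjusted p = 0.031, limma). Summed over HSPA5, HSP90B1, CALR and PDIA4, the level was 349.5, 341.7 and 409.1 FPKM in the NC pigs and 421.8, 408.6 and 340.8 FPKM in the HFCF pigs, with overlap. CALR and PDIA4 were the closest pair among the 9 genes, with a root mean square difference of 0.12 between their centred log2 values over the 6 libraries, and HERPUD1 and ATF6 the farthest, at 0.73.

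**Figure D2:**
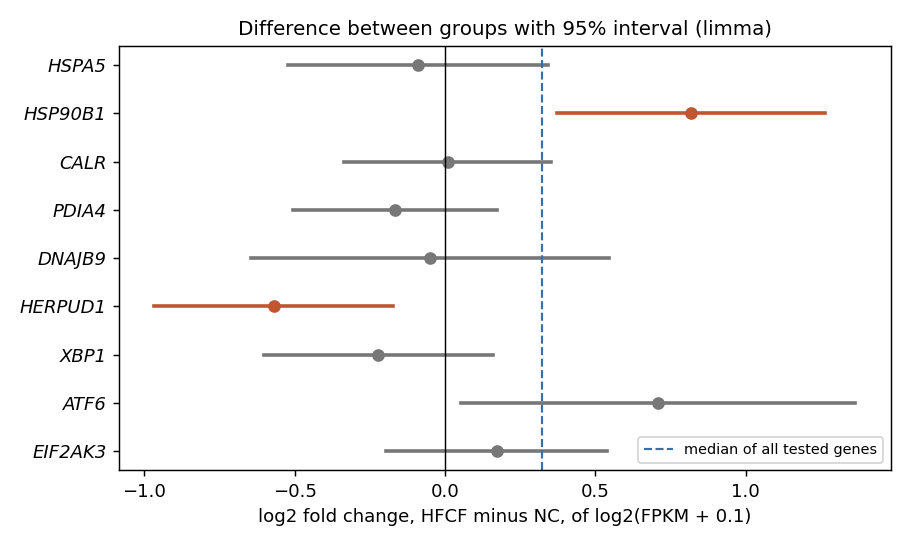
Log2 fold change (HFCF minus NC, of log2(FPKM + 0.1)) of each of the 9 genes, with points for the estimate and lines for the 95% interval from limma, orange where the adjusted p is under 0.05. HSP90B1 (0.82) and HERPUD1 (-0.57) are the 2 orange genes, and only HSP90B1 and ATF6 lie to the right of the dashed median of all tested genes at 0.32.

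Because HSPA5 and HSP90B1 sit in the same compartment, the ratio between them was also taken within each pig, which removes any scaling of the library. HSP90B1 was 0.415, 0.501 and 0.574 times HSPA5 in the NC pigs and 0.918, 0.871 and 0.992 times HSPA5 in the HFCF pigs. The 2 sets of ratios did not overlap, and the mean ratio was 0.497 ± 0.079 in the NC group and 0.927 ± 0.061 in the HFCF group (SD, n = 3 each). CALR was 1.53, 1.71 and 1.78 times HSPA5 in the NC pigs and 1.58, 1.76 and 2.06 times HSPA5 in the HFCF pigs, with overlap between the groups. PDIA4 was 0.636 to 0.822 times HSPA5 in the NC pigs and 0.593 to 0.882 times in the HFCF pigs, and the groups overlapped. HERPUD1 was 0.193, 0.297 and 0.219 times HSPA5 in the NC pigs and 0.151, 0.166 and 0.183 times in the HFCF pigs, all lower than in any NC pig. The ATF6 ratio was 0.0152 to 0.0319 in the NC pigs and 0.0312 to 0.0625 in the HFCF pigs, so that the groups overlapped slightly. XBP1 stood at 0.447 to 0.598 in the NC pigs and at 0.371, 0.395 and 0.719 in the HFCF pigs, the last of which was the highest of all 6. Among the 8 genes set against HSPA5, HSP90B1 and HERPUD1 were the 2 whose ratios did not overlap between groups. They are also the 2 genes called by level. The share of all tested genes with ratios to HSPA5 that do not overlap was not worked out, so the count does not set these 2 apart. These ratios were chosen after the levels had been seen and are given as a description, and an exact two-sided permutation test of 3 pigs against 3 cannot go below p = 0.1.

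**Figure D3:**
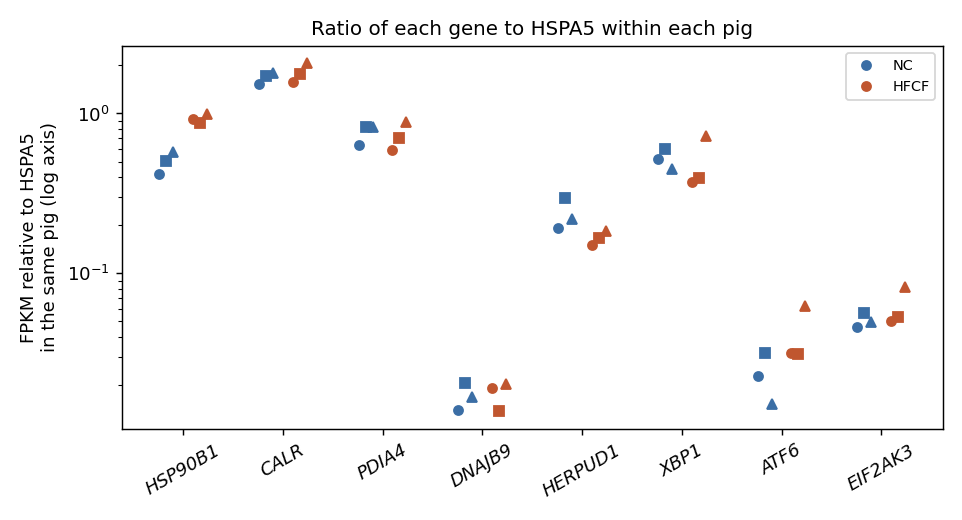
FPKM of each gene divided by the FPKM of HSPA5 in the same pig, on a log axis, for NC pigs (blue) and HFCF pigs (orange), with circle, square and triangle for pigs 1, 2 and 3. The HSP90B1 ratios are 0.415 to 0.574 in the NC pigs and 0.871 to 0.992 in the HFCF pigs, and the HERPUD1 ratios lie lower in the HFCF pigs.

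HERPUD1 and DNAJB9 act where folding has failed. HERPUD1 (ENSSSCG00000040663), a membrane protein that organises the ubiquitin ligase complex of ER-associated degradation, had 18.9, 25.1 and 21.5 FPKM in the NC pigs and 15.6, 15.7 and 12.6 FPKM in the HFCF pigs. Every HFCF pig was below every NC pig, and the third HFCF pig was the lowest. The mean fell from 21.8 ± 3.15 FPKM in NC to 14.6 ± 1.72 FPKM in HFCF (SD, n = 3 each), and the log2 fold change was -0.57 (standard error 0.17, 95% interval -0.97 to -0.17, adjusted p = 0.0426, limma), which is -0.89 relative to all tested genes. The log2 fold change was -0.92 with median-ratio scaling, -0.75 with quantile normalization and -0.83 as TPM, each with a smaller adjusted p. The call was lost when any 1 of the 6 pigs was left out, with adjusted p from 0.0585 (without the first NC pig) to 0.125 (without the second NC pig) in limma. Contractile smooth muscle markers were also lower in the HFCF group, with 6 of 8 lower (2 of 8 without the first NC pig), none higher and none at 0 in all libraries. Their summed level was 22729, 18252 and 15914 FPKM in NC pigs 1, 2 and 3 and 7997, 9537 and 12892 FPKM in HFCF pigs 1, 2 and 3. Within neither group was this the order of HERPUD1, and the part of these markers was not tested.

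DNAJB9 (ENSSSCG00000016653), a J-domain co-chaperone also called ERdj4 that works with HSPA5, was the least abundant of the 9 genes. It had 1.36, 1.75 and 1.66 FPKM in the NC pigs and 1.95, 1.29 and 1.40 FPKM in the HFCF pigs. The first HFCF pig was the highest and the second HFCF pig the lowest of all 6. Its log2 fold change was -0.05 (95% interval -0.64 to 0.55, adjusted p = 0.902, limma), or -0.37 relative to all tested genes, and its spread among the HFCF pigs was 22.9% of the mean. The log2 fold change depended on the scaling. It was -0.38 with median-ratio scaling, -0.31 as TPM and -0.68 with quantile normalization (adjusted p = 0.0626, limma), and none of the 15 alternatives gave a call.

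XBP1 (ENSSSCG00000030996), the transcription factor whose RNA is spliced by IRE1, had 50.6, 50.6 and 43.8 FPKM in the NC pigs and 38.2, 37.2 and 49.7 FPKM in the HFCF pigs. The first and second HFCF pigs were below all NC pigs, whereas the third HFCF pig fell among them. The log2 fold change was -0.22 (standard error 0.16, 95% interval -0.60 to 0.16, adjusted p = 0.335, limma), which is -0.54 relative to all tested genes. It was negative in all 15 alternatives, and median-ratio scaling alone gave a call, at -0.58 (adjusted p = 0.0481, limma). The file gives one value for 3 XBP1 transcripts, and spliced and unspliced forms were not separated. XBP1 is abundant in plasma cells, and 2 of 10 B and plasma cell markers rose (CD79A and PRDM1, and 1 of 10 without the first or the second NC pig) with none lower. The summed level of the 10 was 8.73 to 14.4 FPKM in the NC pigs and 37.2 to 61.2 FPKM in the HFCF pigs, and most of it was CD79A, with 38.0, 36.0 and 34.1 FPKM in the HFCF pigs. The plasma cell markers MZB1 and JCHAIN were high in the first HFCF pig, at 5.21 and 4.95 FPKM, whereas JCHAIN had 0.82 and 0.97 FPKM in the other HFCF pigs against 0.75 to 0.95 FPKM in the NC pigs. TNFRSF17, another plasma cell marker, had 0.65 to 3.70 FPKM in the HFCF pigs and 1.58 to 3.22 FPKM in the NC pigs. The part of these cells in the XBP1 values was not tested.

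ATF6 (ENSSSCG00000006346), a sensor that is cut in the Golgi to release a transcription factor for chaperone genes, had 2.23, 2.70 and 1.49 FPKM in the NC pigs and 3.27, 2.94 and 4.32 FPKM in the HFCF pigs. Every HFCF pig was above every NC pig, but the gap between the second NC pig and the second HFCF pig was small. The mean was 2.14 ± 0.61 FPKM in NC and 3.51 ± 0.72 FPKM in HFCF (SD, n = 3 each). The log2 fold change of 0.71 (standard error 0.28, 95% interval 0.05 to 1.37) had limma p-values of 0.038 unadjusted and an adjusted p of 0.0975, and none of the 15 alternatives gave a call (adjusted p from 0.0859 to 0.686, limma). The change was 0.39 relative to all tested genes and shrank to 0.17 with quantile normalization.

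EIF2AK3 (ENSSSCG00000008208), which encodes the kinase PERK that phosphorylates the translation factor eIF2 alpha, had the smallest spread among the NC pigs, at 3.67% of the mean, and 6.35% among the HFCF pigs. It had 4.51, 4.75 and 4.85 FPKM in the NC pigs and 5.20, 5.05 and 5.70 FPKM in the HFCF pigs. The groups did not overlap, with a difference of 0.17 on the log2 scale (95% interval -0.20 to 0.54, adjusted p = 0.44, limma). That is -0.15 relative to all tested genes. The value lay between -0.22 and -0.08 with the 3 scalings, which lower the median of all tested genes.

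The genes with the closest course over the 6 libraries were sought among 9600 genes that had a symbol and averaged 1 FPKM or more, by the root mean square difference of centred log2 values. Closest to HSPA5 were FURIN, a protease of the secretory pathway, at 0.064, HK1, a hexokinase, at 0.073 and ABCG2, an efflux transporter, at 0.075. Each of these 3 was lowest in the third HFCF pig, like HSPA5. Closest to XBP1 were PYGM, the muscle glycogen phosphorylase, at 0.051, EAPP at 0.052 and REXO1 at 0.06. In these 3, as in XBP1, the first 2 HFCF pigs were below the NC pigs and the third HFCF pig was the highest of its group. These distances over 6 libraries are a description and were not tested.

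Genes of the surrounding machinery were taken from 6 lists, with 114 tested genes in all. Of the 114, the HFCF group had 30 higher and 9 lower (34.2% called, against 28.9% of all tested genes, or 22.8% higher and 6.16% lower). The split depended on the scaling, being 15 higher and 18 lower with median-ratio scaling, 15 higher and 13 lower with quantile normalization, and 18 higher and 13 lower as TPM. The macrophage and smooth muscle sums given above moved with diet beside every list, and their part was not tested. Leaving out 1 library also moved the count by more than 1.5 times, to 21 without the first NC pig and 24 without the second HFCF pig. Calls among all tested genes fell as well, from 4453 to 2421 and 2992 without these pigs and to 2883 without the second NC pig. The counts below with a library left out are therefore not particular to the listed genes.

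Of 24 tested genes for folding and redox in the ER, 10 rose and 0 fell, and the median log2 fold change was 0.42, or 0.10 relative to all tested genes. CANX (calnexin), the membrane-bound relative of calreticulin, had 8.59, 8.13 and 10.2 FPKM in the NC pigs and 16.2, 46.4 and 42.5 FPKM in the HFCF pigs. Every HFCF pig was above every NC pig, but the first HFCF pig was well below the other 2, and the log2 fold change was 1.81 (adjusted p = 0.0155, limma). The call for CANX was lost without the first NC pig (adjusted p = 0.0607, limma) and without the second NC pig (0.0517). UGGT1, which re-labels misfolded glycoproteins so that calnexin and calreticulin bind them again, had 2.27, 1.22 and 2.50 FPKM in the NC pigs and 7.51, 6.08 and 5.50 FPKM in the HFCF pigs. Its log2 fold change of 1.67 (adjusted p = 0.00826, limma) passed in all 15 alternatives. After scaling fewer genes of this list passed, with 5 higher and 2 lower for median-ratio scaling, 5 higher and 1 lower for quantile normalization, and 6 higher and 1 lower for TPM. Without the first NC pig 6 of the 24 were higher and 0 lower.

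Of 21 genes for translocation into the ER, 9 rose and 1 fell (47.6% called, against 28.9% of all tested genes). The median log2 fold change was 0.46, or 0.14 relative to all tested genes. TRAM2, a translocon-associated protein linked to collagen synthesis, had 1.76, 1.63 and 3.21 FPKM in the NC pigs and 10.7, 14.9 and 11.99 FPKM in the HFCF pigs, or 2.51 on the log2 scale (limma, adjusted p = 0.00205). SEC62, a translocon subunit that also takes part in ER turnover, had 4.78, 10.1 and 9.16 FPKM in the NC pigs and 21.9, 23.7 and 26.4 FPKM in the HFCF pigs (log2 fold change 1.64). SSR1, a subunit of the translocon-associated complex, fell, with 23.8, 34.1 and 28.1 FPKM in the NC pigs and 16.4, 18.4 and 17.1 FPKM in the HFCF pigs (log2 fold change -0.71, adjusted p = 0.0205, limma). Its call was lost without the second NC pig and without the third HFCF pig, at adjusted p of 0.0585 and 0.052 in limma. TRAM2 and SEC62 passed in all 15 alternatives. With median-ratio scaling 4 genes of the list were higher and 2 lower, with quantile normalization 5 and 1, and as TPM 5 and 1. Only 5 were higher and 1 lower without the first NC pig or without the second HFCF pig, and 5 and 0 without the second NC pig or without the third HFCF pig.

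Of 19 tested genes for ER-associated degradation besides HERPUD1, 5 rose and 1 fell (31.6% called, against 28.9% of all tested genes). The median log2 fold change was 0.26, or -0.06 relative to all tested genes. EDEM1 and EDEM2 trim the sugars of misfolded glycoproteins. EDEM1 had 6.96, 9.02 and 8.63 FPKM in the NC pigs and 23.5, 17.2 and 15.3 FPKM in the HFCF pigs, or 1.16 on the log2 scale (limma, adjusted p = 0.00816). EDEM2 had 2.60, 2.64 and 2.69 FPKM in the NC pigs and 6.65, 5.36 and 6.98 FPKM in the HFCF pigs, or 1.22 on the log2 scale (limma, adjusted p = 0.00457). Both passed in all 15 alternatives and did not overlap between groups. NPLOC4, a cofactor of the extraction ATPase VCP, fell from 27.3 ± 0.82 FPKM in NC to 18.7 ± 2.14 FPKM in HFCF (SD, n = 3 each), -0.55 on the log2 scale (limma, adjusted p = 0.0266). Its adjusted p was 0.05 or more in 7 of 15 alternatives, 5 of which left out 1 pig (all but the third HFCF pig), with the highest at 0.0799. Without the first NC pig, and likewise without the first HFCF pig, 3 of the 19 were higher and 0 lower. The list had 3 higher and 4 lower genes with median-ratio scaling, 2 and 2 with quantile normalization, and 3 and 2 as TPM.

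Of 14 tested genes that are relatives of the sensors or act on them, 0 rose and 3 fell (21.4% called, against 28.9% of all tested genes). The same count was found with each of the 3 scalings, while 1 fell without the first NC pig. Over the 14 genes the median was 0.09 on the log2 scale, -0.23 relative to all tested genes. PTPN1, a phosphatase of the ER membrane, had 17.4, 16.8 and 12.8 FPKM in the NC pigs and 4.22, 3.58 and 9.56 FPKM in the HFCF pigs. The third HFCF pig was the nearest to the NC pigs, and the log2 fold change was -1.55 (adjusted p = 0.0207, limma). The adjusted p of PTPN1 was 0.0795 without the first NC pig, 0.065 without the second NC pig, 0.0564 without the first HFCF pig and 0.0552 without the second HFCF pig (limma). CREB3L2, a transcription factor cut in the Golgi like ATF6, had 46.7, 49.2 and 68.0 FPKM in the NC pigs and 22.3, 32.0 and 27.4 FPKM in the HFCF pigs, or -0.995 on the log2 scale (limma, adjusted p = 0.0133), and it passed in all 15 alternatives. MBTPS1, the protease that makes the first cut in ATF6, was the third gene and is named after its values were seen. It fell from 46.8 ± 1.52 FPKM in NC to 31.6 ± 2.41 FPKM in HFCF (SD, n = 3 each), or -0.56 on the log2 scale (limma, adjusted p = 0.0177). The call for MBTPS1 was lost without the first NC pig, where CREB3L2 was the only gene of the list that passed. ATF6B, the close relative of ATF6 and also named after its values were seen, had 15.6 ± 0.75 FPKM in NC and 16.4 ± 0.28 FPKM in HFCF (adjusted p = 0.713, limma).

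Of 16 genes of the PERK and ATF4 arm, 2 rose and 0 fell (12.5% called, against 28.9% of all tested genes). The median log2 fold change was 0.37, or 0.05 relative to all tested genes. Without the first HFCF pig 4 were higher, and each of the 3 scalings gave 2 higher and 1 lower. EIF2AK2 encodes PKR, the eIF2 alpha kinase that responds to double-stranded RNA and interferon and is not one of the ER sensors, and had 0.92, 0.97 and 1.56 FPKM in the NC pigs and 5.74, 4.51 and 6.57 FPKM in the HFCF pigs, or 2.21 on the log2 scale (limma, adjusted p = 0.00255). CEBPB, a transcription factor of myeloid cells and of the stress response, had 40.9, 30.2 and 20.9 FPKM in the NC pigs and 88.2, 78.7 and 120.8 FPKM in the HFCF pigs, or 1.67 on the log2 scale (limma, adjusted p = 0.00641). Both passed in all 15 alternatives. The other 14 genes did not pass, and those given here are named after their values were seen. ATF4, whose translation rises when eIF2 alpha is phosphorylated, had 101.8, 112.9 and 91.6 FPKM in the NC pigs and 86.3, 92.6 and 119.8 FPKM in the HFCF pigs (log2 fold change -0.05, 95% interval -0.45 to 0.36, adjusted p = 0.865, limma). DDIT3, which encodes the death-linked factor CHOP, had 1.78, 2.75 and 1.55 FPKM in the NC pigs and 2.40, 2.16 and 1.14 FPKM in the HFCF pigs (log2 fold change -0.11, 95% interval -0.94 to 0.72, adjusted p = 0.837, limma). The groups overlapped for both. NUPR1, a stress-induced chromatin protein, had 49.1, 75.0 and 36.8 FPKM in the NC pigs and 78.9, 148.7 and 310.5 FPKM in the HFCF pigs, without overlap (log2 fold change 1.58, adjusted p = 0.0516, limma). ATF3, a stress-induced transcription factor, had 9.23, 16.9 and 4.195 FPKM in the NC pigs and 68.1, 15.1 and 15.9 FPKM in the HFCF pigs (log2 fold change 1.54, adjusted p = 0.139, limma). PPP1R15A, the phosphatase subunit that reverses the PERK signal, had a log2 fold change of 0.66 (95% interval -0.41 to 1.73, adjusted p = 0.311, limma). SESN2 was lower, at 4.22, 5.85 and 3.64 FPKM in the NC pigs and 2.54, 3.13 and 2.32 FPKM in the HFCF pigs. Its groups did not overlap (log2 fold change -0.74, adjusted p = 0.0567, limma).

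Chaperones outside the ER were split, with 4 of 20 tested genes higher and 4 lower (40.0% called, against 28.9% of all tested genes). Their median was -0.02 on the log2 scale, or -0.34 relative to all tested genes. Higher and lower genes numbered 2 and 1 without the first NC pig, 4 and 1 without the second NC pig, 2 and 4 without the third NC pig, 3 and 2 without the first HFCF pig, and 1 and 2 without the second HFCF pig. HSPE1, the small partner of the mitochondrial chaperonin, rose from 15.1 ± 3.10 FPKM in NC to 65.1 ± 8.15 FPKM in HFCF (SD, n = 3 each), or 2.12 on the log2 scale (limma, adjusted p = 0.00111). DNAJB4, a cytosolic co-chaperone, rose from 20.9 ± 7.37 FPKM in NC to 44.8 ± 13.1 FPKM in HFCF (SD, n = 3 each), with an adjusted p of 0.0481 in limma that was 0.05 or more in 12 of 15 alternatives, among them leaving out any pig but the third HFCF pig. The small heat shock proteins of muscle, HSPB7 and HSPB8, fell by 1.40 and 1.11 on the log2 scale (adjusted p = 0.00718 and 0.025, limma). The call for HSPB8 was lost without the first NC pig (0.0929) and without the second NC pig (0.0651). The first HFCF pig stood apart in some heat shock genes of this list but not in all. The genes named here were picked after their values were seen. HSPB6, HSPB7 and HSPB8 were lowest in that pig, at 243.8, 14.5 and 48.35 FPKM, and BAG3 and HSPA4 were not highest in it. DNAJB1, a cytosolic Hsp40, had 212.7 FPKM in that pig, 37.1 and 42.3 FPKM in the other HFCF pigs and 18.4 to 21.6 FPKM in the NC pigs. HSPA8, the constitutive cytosolic Hsp70, had 177.3, 102.1 and 95.7 FPKM in HFCF pigs 1, 2 and 3, and HSPH1, its exchange factor, had 24.4, 12.4 and 12.6 FPKM. HSPA5, HSP90B1 and DNAJB9 were also highest in this pig, and without it their log2 fold changes were -0.21, 0.71 (adjusted p = 0.0457, limma) and -0.22. With median-ratio scaling 1 gene of this list was higher and 6 lower, with quantile normalization 1 and 5, and as TPM 2 and 5.

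**Figure D4:**
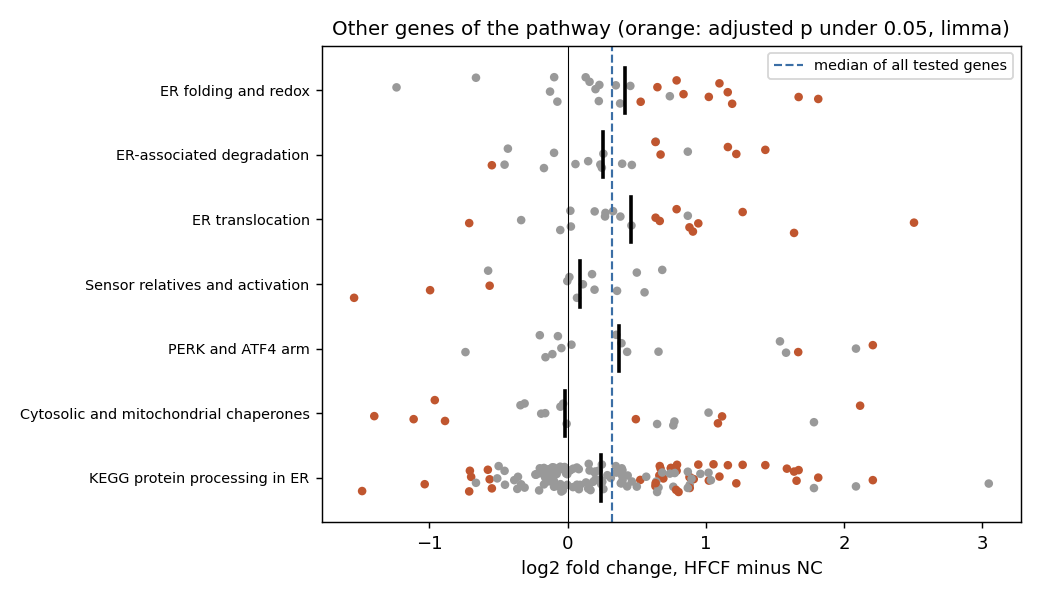
Log2 fold change (HFCF minus NC) of each tested gene in the 6 lists and in the KEGG pathway of protein processing in the ER, orange where the adjusted p is under 0.05 in limma, with a black bar at the median of each list and a dashed line at the median of all tested genes (0.32). Points are spread vertically only to separate them, and list medians lie between -0.02 and 0.46.

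The KEGG annotation deposited with the values places 146 further genes in protein processing in the ER, of which 140 were tested. In HFCF 31 rose and 8 fell (27.9% called, against 28.9% of all tested genes), and the median log2 fold change was 0.24, or -0.08 relative to all tested genes. With median-ratio scaling 17 were higher and 24 lower, with quantile normalization 17 and 13, and as TPM 18 and 14. Without the first NC pig 17 were higher and 3 lower, and without the second HFCF pig 21 and 4. EIF2AK2 and CANX, described above, had the largest rises among the called genes that averaged 1 FPKM or more. WFS1 (wolframin), an ER membrane protein of calcium balance that is also tied to ATF6 turnover, had the largest fall, with 98.2, 64.2 and 86.4 FPKM in the NC pigs and 32.4, 25.6 and 29.5 FPKM in the HFCF pigs. Its log2 fold change was -1.49 (adjusted p = 0.00299, limma), and it passed in all 15 alternatives.

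The other marker lists were tested for the same comparison. Of the macrophage markers 11 of 11 with a row were higher (12 were listed), with none at 0 in all libraries. Of the T cell markers 1 of 7 was higher, of the fibroblast markers 1 of 7 was higher, and of the endothelial and adipocyte markers 0 of 7 and 0 of 5 passed. Without the third NC pig 3 of 5 adipocyte markers were lower, and without the third HFCF pig 1 of 7 endothelial markers was higher. Of 7 immediate early genes, which respond to handling of tissue, 0 were higher and 1 was lower (0 of 7 without either of the first 2 NC pigs, the third NC pig or the first HFCF pig, and 1 higher without the second HFCF pig), and their summed level was 1778 to 2042 FPKM in the NC pigs and 1740 to 2725 FPKM in the HFCF pigs.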

How the data were processed

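Per the labels and the methods, reads were trimmed with cutadapt 1.9, checked with FastQC and aligned with HISAT2 to the pig genome, and StringTie was used for assembly. The authors deposited the FPKM values of each library, which were used without change except that 0.0001 was read as 0. The methods name an earlier genome build than the reference table, so no coordinates are given. Sequence tables were not used here, so lists by retrieval signal or promoter motif were not made.

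Values were analysed as log2(FPKM + 0.1) by limma 3.58.1 in R 4.3.3 for the genes averaging 0.1 FPKM or more, with diet in the model, a trended prior variance in eBayes and Benjamini-Hochberg adjustment, and the script was tested on simulated data. The methods give fold and p thresholds for differential expression without naming the test, and those thresholds are applied beside the adjusted p. The members and lists were chosen with earlier results of these data known. Named genes were the members, up to 2 called genes in each direction per list with a mean FPKM of at least 1, and the 3 genes closest to HSPA5 and to XBP1. Symbols were matched by gene name, or by reference identifier where the row was unnamed. Alternatives were pseudocounts of 1 and 0.01, no filter or a mean FPKM of at least 1, 3 scalings, eBayes without a trend, a replicate block and each library left out. Pigs were housed singly, and whether any shared a litter is not given in the sources used here. FPKM keeps no absolute depth, so precision rests on the variation between the 3 pigs within each diet.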

Additional observations from a re-analysis of the deposited data

How the results depend on the processing

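Of the 9 genes, 2 were called with the deposited values. The count was 1 without a filter, 1 as TPM, 1 with eBayes without a trend, 0 with the replicate block, and 0 to 1 with each library left out. It was 0 without the first NC pig, the second NC pig or the second HFCF pig. Median-ratio scaling called 3 genes, all lower (HERPUD1, PDIA4 and XBP1). Calls among all tested genes moved as well, from 4453 of 15384 to 4004 of 15384 with median-ratio scaling and 3756 of 15384 as TPM. They numbered 3757 of 21816 without a filter and 4131 of 15384 with eBayes without a trend. With each library left out they ran from 2421 of 15372 (without the first NC pig) to 3596 of 15168 (without the first HFCF pig). The median log2 fold change of the 9 genes was -0.38 with median-ratio scaling, -0.22 with quantile normalization and -0.31 as TPM, and -0.15 to 0.08 with each library left out. Relative to all tested genes it was -0.37 with the deposited values, and -0.38, -0.16 and -0.40 with these 3 scalings. The relative value was -0.22 with a pseudocount of 1, -0.19 without a filter and -0.44 to -0.26 with each library left out. Of the 114 listed pathway genes, 39 were called, 23 with the replicate block, and 21 to 35 with each library left out.

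Signs turned for genes near 0. The 3 scalings lower the median of all tested genes (-0.003, -0.065 and 0.089, against 0.32), a shift larger than the values of CALR and EIF2AK3. Median-ratio scaling and TPM divide each library by a single factor, whereas quantile normalization moves genes by unlike amounts. With quantile normalization HSP90B1 went from 0.82 to 0.73, but ATF6 went from 0.71 to 0.17 and DNAJB9 from -0.05 to -0.68. CALR was -0.35 with median-ratio scaling, -0.15 with quantile normalization and -0.25 as TPM, and -0.04 to 0.09 with each library left out. EIF2AK3 was -0.18, -0.22 and -0.08 after the same 3 scalings. With each library left out, HSPA5 lay between -0.21 and 0.08, DNAJB9 between -0.22 and 0.06, ABCG2 between -0.11 and 0.14, FURIN between -0.16 and 0.04, and HK1 between -0.31 and 0.05. The cause of the turns with a library left out was not tested. Of the single-gene values, 412 kept their direction and their side of the threshold, 46 lost a call, 4 gained one and 18 turned sign, among them the 6 of CALR and EIF2AK3 under the scalings.

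The replicate numbers did not mark shared animals, and same-numbered pigs did not deviate together (r = 0.021, -0.079 and -0.072 across genes), so the replicate block is given only here. With it, 2772 of 15384 genes were called, against 4453 without. Among all tested genes 2421 were called without the first NC pig and 2883 without the second NC pig. HSP90B1 had an adjusted p of 0.0647 and HERPUD1 of 0.0841 with the block (limma). No pig correlated best with the pig of its own number in the other group. The absolute depth of the libraries is unknown, which limits what can be said of genes at low FPKM such as DNAJB9 and ATF6.
Lists defined by retrieval signal or promoter motif were planned and not run, since sequences were not used here.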
